A study of Mus musculus with 4 samples.

Results

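The 28 genes described here encode hydrolases and membrane proteins of the lysosome, together with Tfeb, a transcription factor of lysosomal genes. They were chosen by name for their known function, with earlier results of these data known. All 28 were found among the 24015 gene symbols counted in each library and passed the filter on low counts, which left 14259 genes. RNA was taken on day 7 from mouse embryoid bodies, floating clusters of differentiating embryonic stem cells. The stem cells had been derived from outbred embryos. Those of the Trim33-deficient group had both Trim33 copies floxed (Trim33-flox) and a UbcCreERT2 transgene. This is a Cre recombinase under a broadly active ubiquitin promoter that tamoxifen switches on. In the Trim33-deficient group, 4OH-Tamoxifen had been given on day 4, to delete Trim33, which encodes a chromatin-binding ubiquitin ligase and SMAD partner, late in differentiation. The Control group is labelled wild type. Day 4 is listed as the induction day for all 4 libraries, Control included. The labels still leave unstated whether Control carried the floxed alleles and Cre or received 4OH-Tamoxifen. Differences in genotype, in drug or in both therefore cannot be told apart. Each group had 2 libraries, described as independent pairs, each made from whole bodies that mix many cell types.

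Lysosomes are acidic organelles in which proteases, glycosidases and lipases break down material delivered by endocytosis and autophagy. A proton pump keeps the lumen acidic, sorting receptors bring newly made enzymes from the Golgi, and heavily glycosylated membrane proteins such as LAMP1 and LAMP2 line the limiting membrane. The visceral endoderm of the early mouse embryo is an absorptive epithelium with large lysosomal vacuoles, which digest proteins taken up from outside through receptors such as cubilin.

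Libraries held between 10422738 and 13808837 counts in genes, and each of the 28 genes had between 153 and 9403 counts per library. Trim33 was at 93.0 and 109.1 CPM (counts of a gene scaled by TMM to a common library total) in Control and 43.9 and 42.3 CPM in Trim33-deficient libraries, with a log2 fold change of −1.23 (SE 0.13). These are counts of the whole gene, in which the deleted part is not told apart, and 42.6% of the Control level was left. Its adjusted p was 0.219 in edgeR's quasi-likelihood test, the main test here, and 7.1e-06 in DESeq2. Across genes, Control replicate 1 correlated less with the other libraries (Pearson 0.932 to 0.952) than those did among themselves (0.967 or more). Visceral endoderm markers, a list chosen with earlier results of these data known, were lower in Trim33-deficient libraries for 20 of 20 genes. Over all genes tested, 50.2% were below 0. DESeq2 called 17 of the 20 markers lower, against 0.689% of all genes it adjusted. Their summed level ran from 2016 to 2462 CPM in Control and from 511 to 666 CPM in Trim33-deficient libraries. Among macrophage markers, Ptprc had 0, 0, 0 and 1 counts and 8 of 16 genes had at most 3 counts in every library. Csf1r was highest in the sum over libraries, at 189 and 56 counts for the Control libraries and 86 and 128 counts with Trim33 deficiency, and the summed level of all 16 genes was between 11.2 and 17.7 CPM. In bulk RNA, fewer cells of a type and less RNA per cell cannot be told apart.

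A set of 3 cysteine proteases, Ctsh, Ctsc and Lgmn, was lower in Trim33-deficient bodies by 2.17-fold to 4.05-fold, while the other 25 genes lay between −0.60 and 0.35 on the log2 scale. The summed level of all 28 genes was 5120 and 4564 CPM in the Control libraries and 4241 and 5131 CPM in the Trim33-deficient libraries, so the groups overlapped. The median log2 fold change was −0.06, against −0.001 over all genes tested. Of the 28 genes, 17 were below 0 and 11 above, where 50.2% and 49.8% of all genes were.

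The main test called 0 of the 28 genes in either direction. Over all genes tested it called 0.014% lower and 0.0% higher. DESeq2 called 3 of the 28 lower, against 0.689% of all genes it adjusted, and 0 higher, against 0.14%. At an unadjusted edgeR p under 0.05 there were 5 lower genes (Ctsh, Lgmn, Ctsc, Ctsz and Ctsl) and 1 higher gene (Gusb), where the background was 4.78% lower and 3.06% higher. The groups did not overlap, with the Trim33-deficient libraries lower, for 7 genes (Ctsh, Ctsc, Lgmn, Ctsz, Ctsl, Neu1 and Npc1), or 25.0% against a background of 21.4%. They did not overlap in the other direction for 2 genes (Gusb and Asah1), or 7.14% against 19.3%. The 95% interval of the log2 fold change lay wholly between −1 and 1 for 23 of the 28 genes. This was 82.14%, against 60.35% of all genes tested. For the 23 genes a change of more than 2-fold lay outside the interval. The exceptions among the 28 were Ctsh, Ctsc, Lgmn, Lipa and Tfeb.

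**Figure D1:**
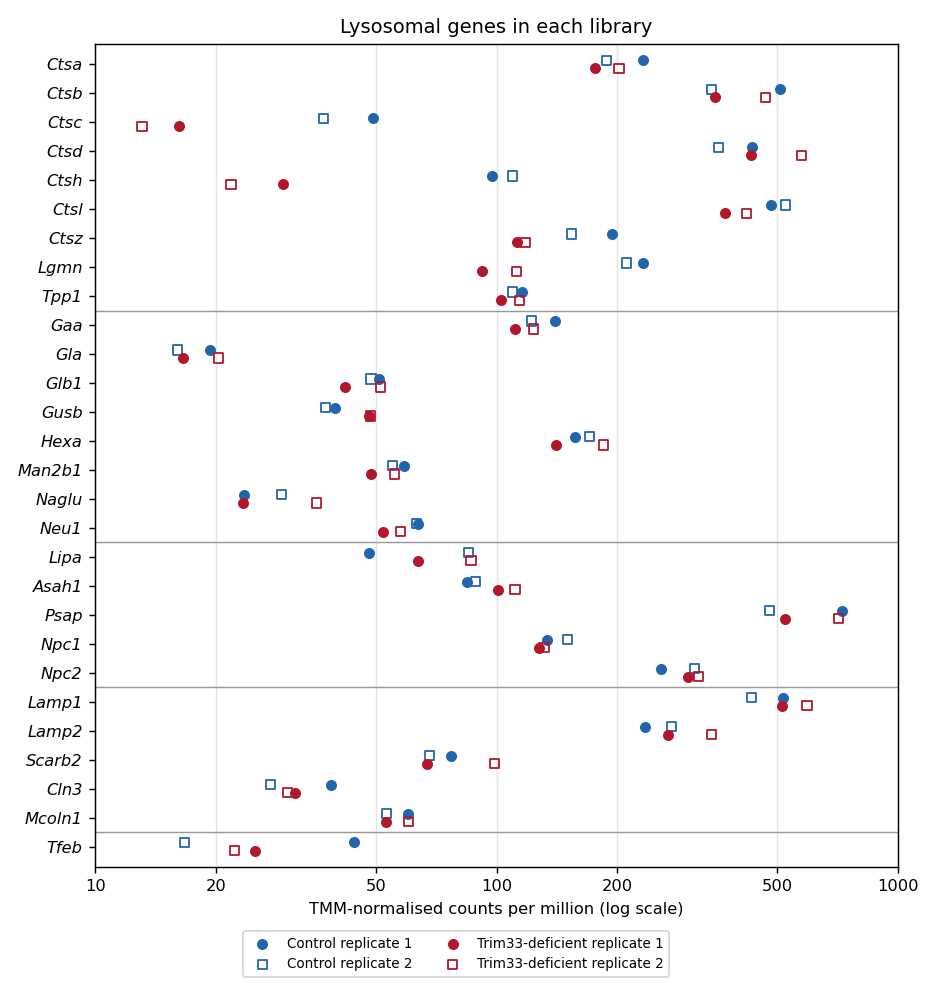
Level of each of the 28 lysosomal genes in each library, in TMM-normalised CPM on a log axis, with lines parting proteases, glycosidases, lipid-handling proteins, membrane proteins and Tfeb from top to bottom. For Ctsc, Ctsh and Lgmn the 2 Trim33-deficient libraries (red) lie far left of the 2 Control libraries (blue), while for most other genes the symbols overlap.

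Among the 9 proteases, 8 had log2 fold changes below 0. Ctsh, cathepsin H, is a cysteine protease that trims peptides from the amino end. Its level was 97.3 and 109.7 CPM in the Control libraries and 29.4 and 21.8 CPM in the Trim33-deficient libraries, so the groups were far apart. The log2 fold change was −2.01 (SE 0.19), which left 24.7% of the Control level, with adjusted p = 0.190 in edgeR and 9.9e-12 in DESeq2. Ctsc, cathepsin C or dipeptidyl peptidase I, removes dipeptides and activates other proteases. It was at 49.3 and 37.0 CPM in Control and 16.2 and 13.1 CPM in Trim33-deficient libraries, again without overlap. This is a log2 fold change of −1.56 (SE 0.22), leaving 33.9%, with adjusted p = 0.310 in edgeR and 0.000117 in DESeq2. Lgmn, legumain, cleaves after asparagine and processes several cathepsins into their mature chains. It was at 232 and 211 CPM in Control and 92.0 and 112 CPM in Trim33-deficient libraries. The log2 fold change came to −1.12 (SE 0.14), leaving 46.1%, with adjusted p = 0.252 in edgeR and 4.6e-05 in DESeq2.

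These 3 genes are also the only members of the group in the authors' deposited table. The table lists 84 genes, 70 of them lower, where 24015 gene symbols were counted. Its highest adjusted p is 0.0496, so being listed there is itself a call. In the authors' deposited table the log2 fold changes were −2.01 for Ctsh, −1.55 for Ctsc and −1.11 for Lgmn, with adjusted p of 4.9e-10, 0.000990 and 0.000277. That table was made from the same libraries. The calls depended on the library set. With any 1 library left out DESeq2 still called Ctsh. Lgmn lost its call without Trim33-deficient replicate 1, and Ctsc lost it without Control replicate 1 or Trim33-deficient replicate 1 or 2. Each of these fits left 1 library in a group, and the number of genes called over the whole table also changed between them. Without Control replicate 2, edgeR called Ctsh (adjusted p = 0.0453) among 0.447% of all genes called lower. It also called Ctsh without the low-count filter (adjusted p = 0.0464), where 0.0754% of all genes were called lower, and its likelihood ratio test called all 3 genes, against 0.982%. The log2 fold changes stayed between −2.24 and −1.81 for Ctsh, −1.75 and −1.34 for Ctsc and −1.26 and −0.97 for Lgmn in these fits. Group means of the marker levels of several cell types differed alongside. Visceral endoderm markers had 26.3% of their summed Control level left. Neuroectoderm markers were below 0 for 8 of 8 genes (66.9% left) and pluripotency markers for 7 of 8 (65.2% left), against 50.2% of all genes. Mesenchyme and cardiomyocyte markers were above 0 for 8 of 8 each (180.7% and 253.9%), against 49.8%. Neither edgeR nor DESeq2 called any marker of the latter 4 cell types. Summed levels of neuroectoderm, mesenchyme and cardiomyocyte markers overlapped between groups. For mesenchyme they were 1268 and 7507 CPM in Control and 4128 and 11730 CPM in Trim33-deficient libraries. For neuroectoderm they were 449 and 219 CPM, then 233 and 214 CPM. Parietal endoderm and endothelium markers stood at 101.4% and 85.4% of Control. The part of these cells in the lower protease levels was not tested.

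The remaining 6 proteases differed less between the groups. Ctsz, cathepsin Z, a carboxypeptidase, was at 194 and 154 CPM in Control and 113 and 118 CPM in Trim33-deficient libraries (log2 fold change −0.60, SE 0.15), with adjusted p = 0.544 in edgeR and 0.319 in DESeq2. Ctsl, cathepsin L, a broad-range endopeptidase, was at 483 and 524 CPM in Control and 372 and 419.9 CPM in Trim33-deficient libraries (log2 fold change −0.35, SE 0.13, edgeR adjusted p = 0.630). For both genes the groups did not overlap, but the differences did not pass in any fit run. Ctsb, cathepsin B, had 510 and 344 CPM in Control and 351 and 468 CPM in Trim33-deficient libraries, which interleaved. All 6 cysteine proteases of the list (Ctsb, Ctsc, Ctsh, Ctsl, Ctsz and Lgmn) were thus below 0, with a median of −0.86, a grouping made after their values were seen. Outside the 28 genes, cysteine cathepsins went both ways, with Ctsf at −0.49 and Ctso at 0.71 (SE 0.59), neither of which passed. The aspartic protease Ctsd, cathepsin D, was at 433 and 358 CPM in Control and 431 and 577 CPM in Trim33-deficient libraries, with a log2 fold change of 0.35 (SE 0.20, edgeR adjusted p = 0.684). The serine peptidase genes Ctsa and Tpp1 were at −0.15 and −0.06.

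**Figure D2:**
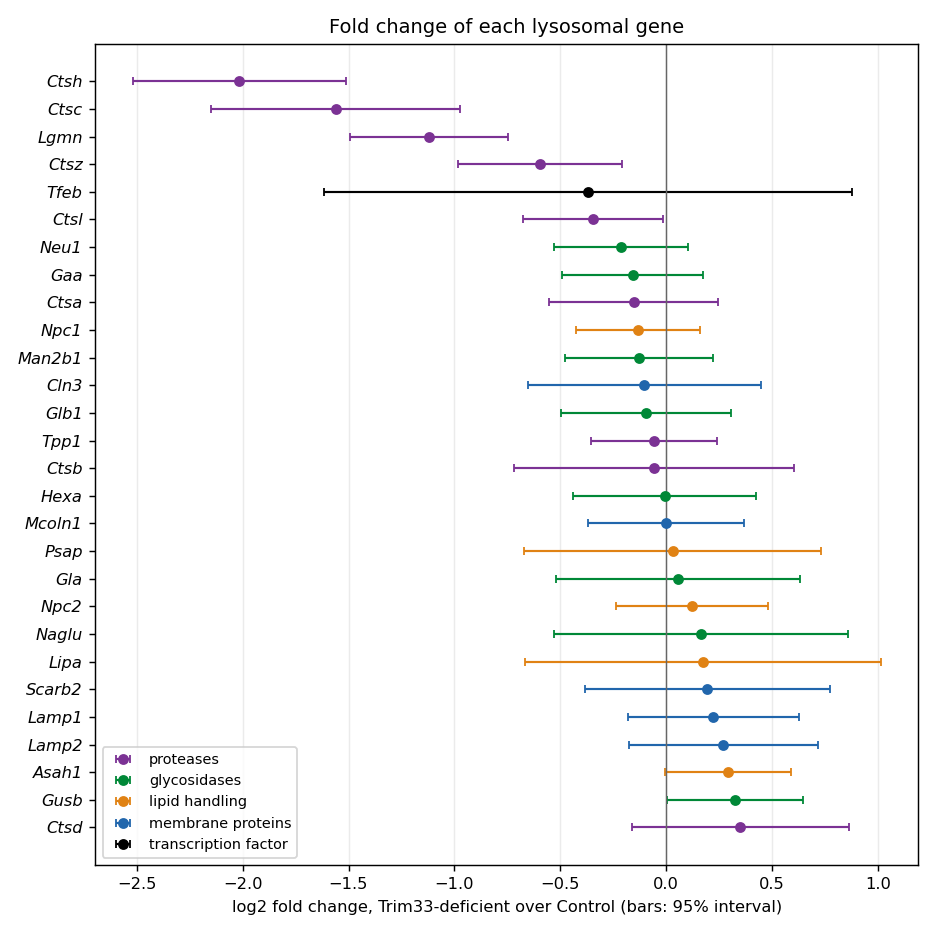
Log2 fold change of each lysosomal gene, Trim33-deficient over Control, with its 95% interval from the edgeR fit, sorted and coloured by role. Ctsh, Ctsc and Lgmn stand at −2.01, −1.56 and −1.12 with intervals wholly below −0.5, and the intervals of most other genes cross 0.

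TFEB and its relatives bind an E-box, CACGTG, near the start of many lysosomal genes. RefSeq start windows (GRCm38.p6, 250 bases before to 50 after the start) were given for 24 of the 28 genes, in 30 windows, and not for Ctsb, Ctsh, Asah1 and Npc1. CACGTG, which reads the same on both strands, was found for 11 of the 24 genes, or 45.8%, against 8.09% of the 27025 genes with a window. The longer TCACGTG, searched on both strands and overlapping the first, was found for 10 genes, against 4.29% of all genes. The 11 genes with CACGTG had a median log2 fold change of −0.09 (from −1.12 to 0.35), and the 13 without it −0.01 (from −1.56 to 0.33). A match is a description of these letters, not of a bound site. The bases before the start are shown for Lamp1, which held the most matches and was called by no fit, for Lgmn and Ctsc, which DESeq2 called lower, and for Ctsz, the next lowest gene. CACGTG is in capitals. Of the 2 Lgmn windows the downstream one is shown, since it holds the match. None of the 4 stretches overlaps an exon of the GENCODE vM21 annotation.
Lamp1, chr8:13158911-13159160, plus strand: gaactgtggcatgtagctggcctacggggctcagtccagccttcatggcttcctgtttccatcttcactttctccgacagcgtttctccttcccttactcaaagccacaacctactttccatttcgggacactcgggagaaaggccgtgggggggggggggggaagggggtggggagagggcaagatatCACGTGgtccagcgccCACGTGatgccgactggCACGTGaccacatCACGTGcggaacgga
Lgmn, chr12:102439093-102439342, minus strand: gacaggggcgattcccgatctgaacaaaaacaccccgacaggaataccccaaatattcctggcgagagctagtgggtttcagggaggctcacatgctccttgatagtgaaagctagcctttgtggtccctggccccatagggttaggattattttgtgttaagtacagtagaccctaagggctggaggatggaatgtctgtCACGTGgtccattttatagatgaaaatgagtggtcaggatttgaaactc
Ctsc, chr7:88277835-88278084, plus strand: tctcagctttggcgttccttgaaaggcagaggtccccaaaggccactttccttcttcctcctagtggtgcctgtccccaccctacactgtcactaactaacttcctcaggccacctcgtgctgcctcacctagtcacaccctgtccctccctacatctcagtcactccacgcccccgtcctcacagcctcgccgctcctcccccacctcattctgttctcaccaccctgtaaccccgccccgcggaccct
Ctsz, chr2:174439040-174439289, minus strand: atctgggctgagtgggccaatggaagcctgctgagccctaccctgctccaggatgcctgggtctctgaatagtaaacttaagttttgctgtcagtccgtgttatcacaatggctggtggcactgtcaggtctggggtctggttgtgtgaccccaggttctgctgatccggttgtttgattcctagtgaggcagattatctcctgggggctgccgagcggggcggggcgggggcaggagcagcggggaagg
Lamp1 had 4 matches, whose first bases lay 61, 45, 28 and 15 bases before the start, and the shown Lgmn window had 1, at 49 bases. Ctsc and Ctsz had 0 in their windows.

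The 8 glycosidases, which strip sugars from glycoproteins, glycolipids and glycogen, had log2 fold changes from −0.21 to 0.33. Gusb, beta-glucuronidase, was at 39.6 and 37.4 CPM in Control and 48.0 and 48.4 CPM in Trim33-deficient libraries, so both Trim33-deficient libraries lay above (log2 fold change 0.33, SE 0.12, edgeR adjusted p = 0.637). Neu1, the lysosomal sialidase, was at 63.7 and 63.3 CPM in Control and 52.0 and 57.6 CPM in Trim33-deficient libraries (−0.21, SE 0.12, adjusted p = 0.685). For the other 6 the libraries of the groups interleaved. The values were −0.16 for Gaa, acid alpha-glucosidase, −0.13 for Man2b1, alpha-mannosidase, −0.09 for Glb1, beta-galactosidase, and −0.01 for Hexa, the hexosaminidase alpha chain. Naglu, which acts on heparan sulfate, and Gla, alpha-galactosidase A, were at 0.17 and 0.06. The intervals of all 8 lay between −1 and 1.

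The 5 genes of lipid handling lay between −0.13 and 0.29. Asah1, acid ceramidase, was at 84.5 and 88.5 CPM in Control and 100.7 and 111 CPM in Trim33-deficient libraries, which did not overlap (log2 fold change 0.29, SE 0.11, edgeR adjusted p = 0.643). Psap, the precursor of the saposins that present sphingolipids to hydrolases, was among the most abundant genes, with 727 and 480 CPM in Control and 523 and 711 CPM in Trim33-deficient libraries. Its replicates differed more within each group than the group means of 603 and 617 CPM did. Lipa, the acid lipase that frees cholesterol from its esters, was at 48.2 and 85.0 CPM in Control and 63.8 and 86.4 CPM in Trim33-deficient libraries (0.17, SE 0.32). Npc1 and Npc2, which pass cholesterol out of the lysosome, were at −0.13 and 0.12.

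The 5 membrane protein genes were between −0.10 and 0.27. Lamp1 was at 518 and 432 CPM in Control and 516 and 595 CPM in Trim33-deficient libraries (log2 fold change 0.22, SE 0.15). Lamp2, which also serves in chaperone-mediated autophagy, was at 234 and 273 CPM in Control and 268 and 344 CPM in Trim33-deficient libraries (0.27, SE 0.17, edgeR adjusted p = 0.709). In both genes Trim33-deficient replicate 2 was the highest library and the groups overlapped. Scarb2, the receptor that carries glucocerebrosidase to lysosomes, was at 0.19, Cln3 at −0.10 and the cation channel gene Mcoln1 at −0.001. Tfeb itself was at 44.1 and 16.7 CPM in Control and 25.0 and 22.2 CPM in Trim33-deficient libraries. The spread between the 2 Control libraries exceeded the difference between groups, and the log2 fold change of −0.37 (SE 0.47, edgeR adjusted p = 0.836) turned to 0.50 without Control replicate 1.

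Within the pairs taken by replicate number, the direction of most genes turned from one pair to the other. In pair 1, 23 of 28 genes were lower in the Trim33-deficient library, against a background of 50.1%, and in pair 2, 21 of 28 were higher, against 50.6%. The median log2 ratio of the 28 genes was −0.25 in pair 1 and 0.11 in pair 2, while over all genes tested it was −0.001 and 0.006. Other lysosomal genes turned in the same way. Of 99 tested genes in the 4 lists described below, 65 were lower in pair 1 and 66 higher in pair 2, with medians of −0.11 and 0.15. The sign differed between pairs for 16 of 28 genes, where the background was 39.9%. Genes lower within both pairs numbered 7 (background 29.8%) and genes higher within both pairs 5 (background 30.3%). Ctsh had log2 ratios of −1.71 and −2.31, Ctsc −1.58 and −1.47, and Lgmn −1.33 and −0.91, so these 3 genes were lower in each pair by more than 1.8-fold. Psap was at −0.47 and 0.57, Ctsb at −0.54 and 0.45 and Tfeb at −0.81 and 0.40, each below 0 in pair 1 and above it in pair 2. Control replicate 1, the library that stood apart, is part of pair 1, and marker levels of other cell types also differed between the pairs. Summed cardiomyocyte markers were 241 and 1712 CPM in Control and Trim33-deficient libraries of pair 1, and 614.5 and 460.2 CPM in pair 2. The part of that library and of these cells in the pattern was not tested.

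**Figure D3:**
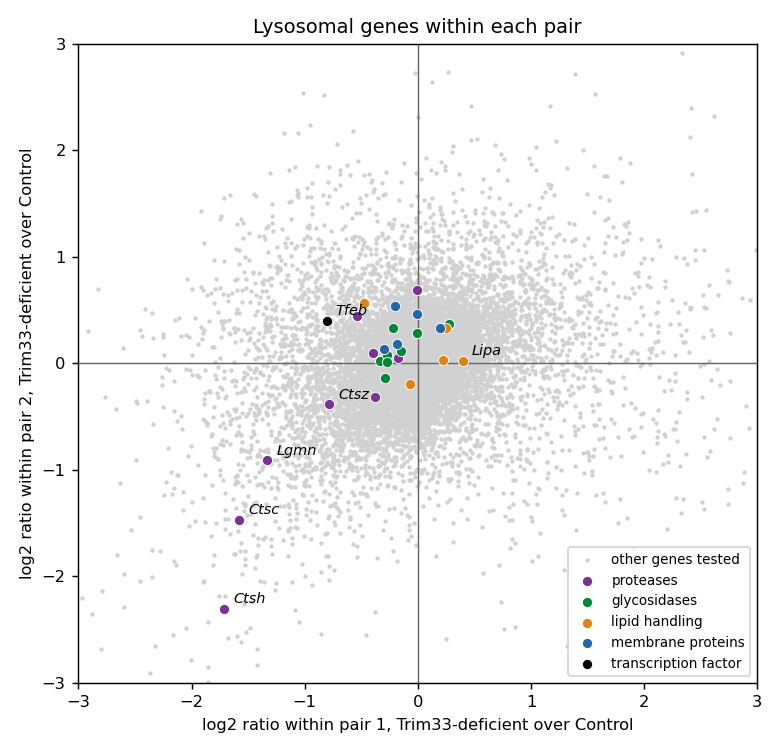
Log2 ratio of Trim33-deficient over Control in pair 1 (x axis) and pair 2 (y axis) for the lysosomal genes, coloured by role, over the other genes tested (grey), of which 57 lie outside the axes. Ctsh, Ctsc and Lgmn sit in the lower left quadrant, away from the cluster of the others, and many others sit in the upper left quadrant, lower in pair 1 and higher in pair 2.

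Per kilobase of the longest GENCODE transcript, a rough scale since the transcripts used in these cells are unknown, the most abundant of the 28 genes over the 4 libraries were Lamp1, Psap and Ctsd, with Psap at 229.6, Lamp1 at 231 and Ctsd at 211 CPM per kb. Gla was lowest at 5.68 CPM per kb and Ctsc next at 8.97 CPM per kb. Lgmn stood 8th of 28 and Ctsh 16th at 23.5 CPM per kb, or 12th at 39.9 CPM per kb with the longest coding transcript. Lgmn went from 111 to 51.3 CPM per kb between Control and Trim33-deficient libraries, and Ctsh from 37.7 to 9.32 CPM per kb of the longest transcript. Exons of 7 of the 28 genes overlap those of another counted gene in the annotation, among them Ctsb with Fdft1 and Hexa with Tmem202. The labels give no strand setting for the counting, so whether reads there were counted or left out as ambiguous is not known. Ctsh, Ctsc and Lgmn had no such overlap.

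Lists of other lysosomal genes were set beside the 28. Of 99 tested genes in the 4 lists of other hydrolases, other membrane proteins, proton pump subunits and enzyme sorting, edgeR and DESeq2 called 0. Over all genes, edgeR called 0.014% lower and 0.0% higher, and DESeq2 0.689% and 0.14%, so few calls could fall among 99 genes. Of the 99, 52 were below 0 and the median log2 fold change was −0.003. At an unadjusted edgeR p under 0.05 there were 6 lower, or 6.06%, and 4 higher, near the background of 4.78% lower and 3.06% higher. Their summed level was 100.9% of Control. The other hydrolases and activators had a median of −0.09 over 33 tested genes, with the smallest p for Idua (−0.51) and Arsb (0.67), which act on glycosaminoglycans, and Ctsf (−0.49), another cathepsin. Ctss, the cathepsin of antigen-presenting cells, had 0, 0, 0 and 1 counts. The other membrane proteins had a median of −0.005 over 29 tested genes, with Ostm1, the partner of the chloride transporter ClC-7, at 0.67, the channel gene Tpcn1 at −0.41 and the amino acid sensor gene Slc38a9 at −0.72. Proton pump subunits had a median of 0.10 over 19 tested genes, and Atp6v0a2 was at 0.49.

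Sorting genes had a median of −0.01 over 18 genes. Igf2r encodes the large mannose phosphate receptor that carries hydrolases to lysosomes. Its counts were 980 and 896 in the Control libraries and 1665 and 1792 with Trim33 deficiency (log2 fold change 0.74, SE 0.17, edgeR adjusted p = 0.523, DESeq2 adjusted p = 0.113). Gnptab, which makes the sugar tag that this receptor binds, was at −0.63 and the adaptor gene Gga2 at −0.34. Among 21 regulators and nutrient-sensing genes, with a median of 0.10, Tfec, a relative of Tfeb, had counts of 80 and 45 in the Control libraries and 18 and 8 with Trim33 deficiency. The difference of −2.39 on the log2 scale (SE 0.49) did not pass in edgeR (adjusted p = 0.502) or DESeq2 (adjusted p = 0.0710), but passed edgeR's likelihood ratio test. Autophagy genes had a median of 0.07 over 22 genes, all between −0.32 and 0.35. Visceral endoderm markers differed on another scale, with a median of −2.47. Cubn, the cubilin gene, was at 112 and 129 CPM in Control and 4.11 and 4.78 CPM in Trim33-deficient libraries, a log2 fold change of −4.76 (edgeR adjusted p = 0.0166). Apoc2, an apolipoprotein gene, was at 61.0 and 59.9 CPM in Control and 0.866 and 0.854 CPM in Trim33-deficient libraries, a log2 fold change of −6.12 (edgeR adjusted p = 0.0138). These were the 2 genes that the main test called.

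**Figure D4:**
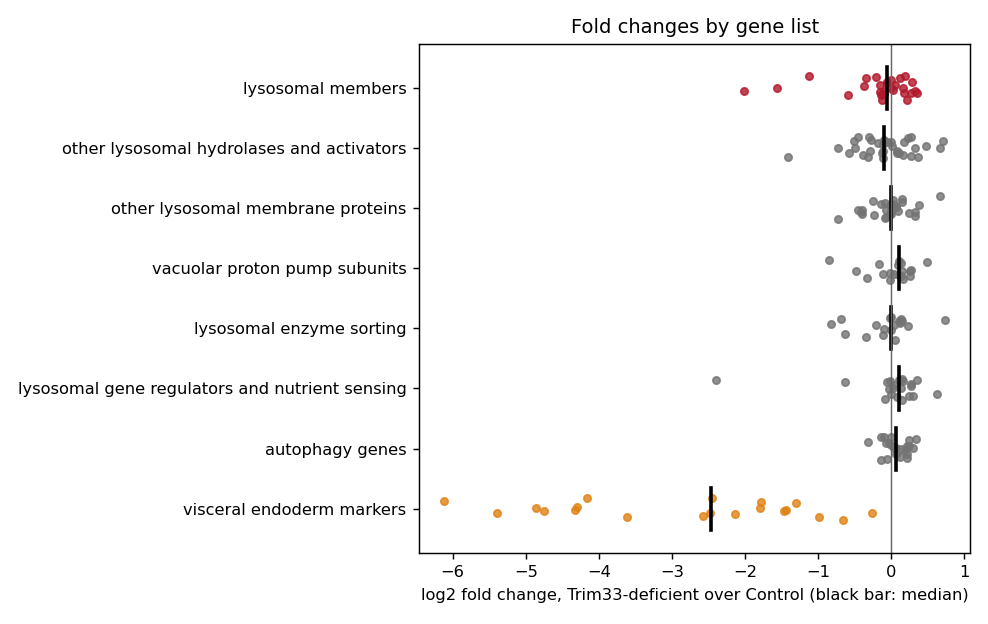
Log2 fold change, Trim33-deficient over Control, of each tested gene in the 28 lysosomal genes (red), 6 related lists (grey) and visceral endoderm markers (orange), with the median of each list as a black bar. The medians of the lysosomal and related lists lie between −0.09 and 0.10, and that of the visceral endoderm markers is −2.47.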

How the data were processed

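Raw counts for each gene symbol were deposited for 4 libraries. STAR, HTSeq and DESeq, and mm9 as the build, appear in the submitters' processing notes without versions. Rows that name no gene, 55.5% to 56.0% of reads without a feature and at most 0.200% ambiguous, were left out. Per the file headers, the table of the authors gives a fold ratio, its log2 and p-values. Its signs matched those of the DESeq2 fit for 84 of 84 genes, which set its direction.

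All genes were fitted with edgeR 4.0.16 in R 4.3.3 (filterByExpr, TMM, quasi-likelihood F-test, two-sided, Benjamini-Hochberg over 14259 genes, threshold 0.05). Standard errors are the absolute log2 fold change over the square root of F. DESeq2 1.42.0, limma 3.58.1 voom, other scalings and filters, a replicate block and each library left out were alternatives. The fits were tested on simulated data. Ratios within pairs used a pseudocount of 0.5 CPM. Replicates of a group differed beyond sampling noise (chi-square per degree of freedom 30.4 and 20.8). The labels speak of independent pairs, so equal replicate numbers were taken as pairs. The Pearson correlation of their deviations from group means was 0.236. Separate cell lines for the replicates are not stated, so p-values reflect only library-to-library spread, which may be technical.

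The genes and lists were chosen with earlier results of these data known. Values in every library were given for Trim33, Tfeb, the 2 genes called by edgeR, the lysosomal genes called by DESeq2 and the 10 lysosomal genes with the smallest p, and for up to 3 genes of each other list their fold changes. Psap, Ctsb, Lipa, Lamp1, Ctss, Ctso, Csf1r and Ptprc were added after their values were seen.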

Additional observations from a re-analysis of the deposited data

How the results depend on the processing

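Leaving out a library left 1 in its group, whose spread was then taken from the other group, and broke 1 of the pairs. The largest counts of calls below came from DESeq2 without Control replicate 2. The number of lysosomal genes called lower was 0 in the main fit, 3 with DESeq2 or edgeR's likelihood ratio test and 1 without a low-count filter (Ctsh), and from 0 to 3 with a library left out. Genes called lower over the whole table numbered 2, but 113 with DESeq2, 140 with the likelihood ratio test, 0 with limma voom and 14 without a low-count filter, and from 0 to 286 with a library left out. Genes called higher numbered 0, but 23 with DESeq2 and 29 with the likelihood ratio test, and from 0 to 390 with a library left out. Trim33 was called with DESeq2 (−1.22) and the likelihood ratio test (−1.23), and with DESeq2 without Control replicate 1 (−1.34) or 2 (−1.09). The log2 fold change ran from −1.35 to −1.09 with a library left out.

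In the related lists, the likelihood ratio test called 1 regulator (Tfec), and without Control replicate 2 DESeq2 called 1 other hydrolase or activator (Gm2a) and 1 sorting gene (Cln6). All counts for these 3 lists with a library left out lay between 0 and 1. The median of the regulators, 0.10, was 0.12 with DESeq2, 0.08 with limma voom or the replicate block, 0.11 with DESeq2 size factors or without a low-count filter, 0.07 with upper quartile scaling, 0.06 with library totals and 0.10 with the stricter filter, and 0.03 to 0.17 with a library left out.

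Of 476 values of single lysosomal genes in 17 other settings, 16 passed where the main value did not, all for Ctsh, Ctsc or Lgmn, and 46 changed sign. With all libraries kept, the sign changed for Hexa (0.004 with DESeq2, 0.0004 with DESeq2 size factors), Psap (−0.01 with upper quartile scaling, −0.02 with library totals) and Mcoln1 (0.01 with DESeq2 or its size factors, 0.001 without a low-count filter). With a library left out, the ranges that crossed 0 were −0.29 to 0.003 for Ctsa, −0.31 to 0.25 for Ctsb, −0.14 to 0.03 for Tpp1, −0.10 to 0.21 for Gla, −0.25 to 0.07 for Glb1, −0.21 to 0.19 for Hexa, −0.17 to 0.46 for Naglu, −0.18 to 0.66 for Lipa, −0.23 to 0.36 for Psap, −0.01 to 0.28 for Npc2, −0.11 to 0.47 for Scarb2, −0.32 to 0.17 for Cln3, −0.10 to 0.11 for Mcoln1 and −0.90 to 0.50 for Tfeb. The cause was not tested. The replicate block called 0 lysosomal genes, and over the whole table it called 2 genes lower and 0 higher, the same genes as without it, so it changed no call. The summed level of the 28 genes was 96.8% of Control and ran from 87.6% to 106% with a library left out.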
